A study of Mus musculus with 18 samples.

Results

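The genes described here are 36 mouse orthologs of human chromosome 21 genes that lie on mouse chromosomes 10 and 17, outside the chromosome 16 segment that is triplicated in the Dp16 mouse. They were taken by name from the deposited table of 55385 genes, in which each of the 36 was found once, with 23 on chromosome 10 (between positions 76207222 and 78464975 of GRCm38) and 13 on chromosome 17 (between positions 31057675 and 32062865). None lies in the triplicated segment (positions 75540514 to 97962622 of chromosome 16), so every mouse in the study is taken to carry them in the normal 2 copies. Polyadenylated RNA was sequenced from the livers of 18 mice aged 17.1 to 18.0 weeks, in 3 groups of 6 with 3 males and 3 females each. Wild-type mice were C57BL/6J. Dp16 mice carry the extra copy of the chromosome 16 segment. Dp16-2xIFNRs mice carry it too, but with the dosage of the interferon receptor genes set back to normal. The labels give no strain for the groups that carry the segment and do not say which mice were littermates, so the p-values measure the spread between these 18 livers. Of the libraries, 11 share a number in their sample descriptions with a library of another group. What that number marks is not given, and the main fit treats the libraries as independent.

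Human chromosome 21 has no single counterpart in the mouse. Its genes are spread over conserved blocks of chromosomes 16, 17 and 10, and a duplication of the chromosome 16 block raises the dosage of that block alone. The chromosome 10 and 17 orthologs therefore serve as an internal comparison. A gene in an extra copy tends to make more RNA, roughly in proportion to its copies. A change in a gene left in 2 copies would not come from its own copy number. Several of them matter in liver. Cbs and Ftcd act in the hepatic breakdown of homocysteine and histidine, Pfkl encodes the liver subunit of phosphofructokinase, and Slc19a1 is the reduced folate carrier.

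Total counts per library ran from 38236222 to 59923315. Dp16 libraries 4 and 5 stood apart, at the ends of the range of TMM scaling factors (0.8026 and 1.338), and their values are pointed out where they touch a result. Hepatocyte markers were abundant in every library, with a summed level over 10 genes of 84060 to 143000 CPM, counts scaled to the size of the library after TMM correction. The 4 interferon receptor genes of the segment (Ifnar1, Ifnar2, Ifngr2 and Il10rb) summed to 107.2 to 136.8 CPM in wild-type, 142.8 to 188.2 in Dp16 and 108 to 154.4 in Dp16-2xIFNRs. A gene was called at a Benjamini-Hochberg adjusted p under 0.05 over the 15208 genes tested. In bulk liver, fewer cells of a type and less RNA per cell cannot be told apart.

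Of the 36 orthologs, 34 passed the filter on low counts. The others were Rsph1, a radial spoke protein of motile cilia, with 66 counts over all 18 libraries, and S100b, a calcium-binding protein of glia, with 8 counts, 4 each in Dp16-2xIFNRs libraries 3 and 4 and 0 in every wild-type and Dp16 library. S100b overlaps Dip2a on the opposite strand. Levels between genes are given per length, as RPKM (counts scaled to gene length and library size) in wild-type liver.

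The highest level belonged to the histidine and folate enzyme Ftcd, at 101.8 ± 13.2 RPKM (SD, n = 6), above 95.7% of the genes tested. Pttg1ip, a membrane glycoprotein that binds the securin PTTG1, followed at 95.84 ± 11.9 RPKM, less than 1 SD away. Cbs, the first enzyme of transsulfuration, stood at 64.34 ± 24.0 RPKM and the cathepsin inhibitor Cstb at 61.91 ± 21.7, again within their spread. A middle range held the acyltransferase Agpat3 at 31.52, the splicing factor U2af1 at 29.36, the ribosome assembly factor Rrp1 at 26.29, the ubiquitin-like modifier Sumo3 at 22.19 and the ERAD ubiquitin-conjugating enzyme Ube2g2 at 13.57 RPKM. Below these came the cGMP phosphodiesterase Pde9a at 9.184, Pfkl at 8.209, the pyridoxal kinase Pdxk at 7.576, the O-fucosyltransferase Pofut2 at 6.789 and the salt-inducible kinase Sik1 at 5.131 RPKM. The integrin chain Itgb2, a leukocyte gene, stood at 2.851 RPKM, close to the middle of all genes tested (above 55.1%). The lowest tested level belonged to Ubash3a, a T cell phosphatase, at 0.01487 ± 0.0189 RPKM, with 158 counts over all libraries and 0 in 5 of 18.

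**Figure D1:**
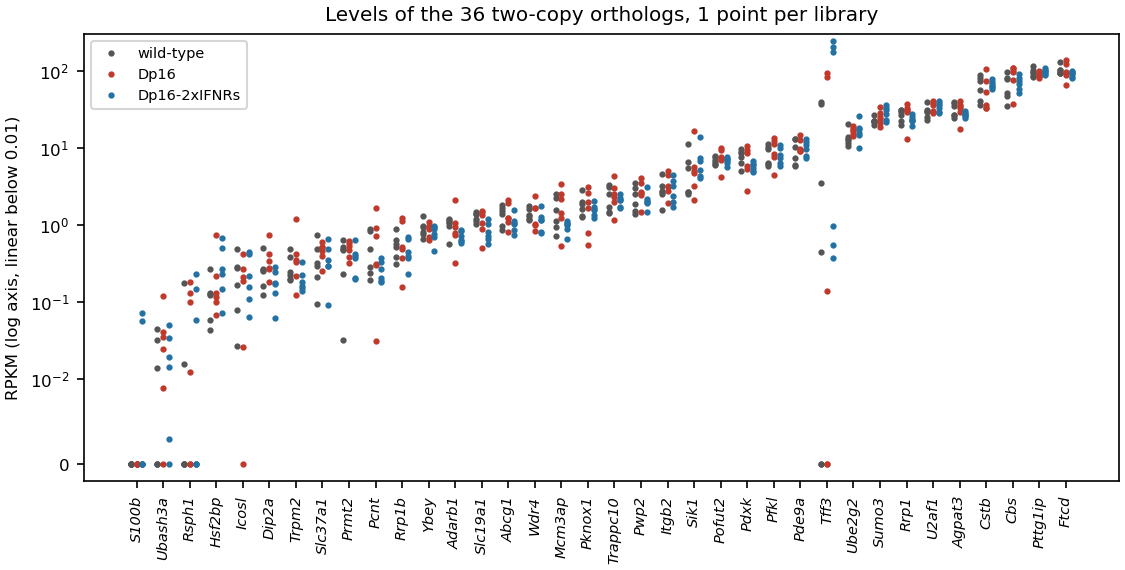
RPKM (log axis, linear below 0.01) of each ortholog in each of the 18 libraries, 1 point per library, coloured by genotype and ordered by the wild-type mean. Ftcd and Pttg1ip lie at the top near 100 RPKM, S100b is at 0 in 16 libraries, and Tff3 spreads from 0 to above 200 RPKM.

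The first question was whether genes left in 2 copies move when the chromosome 16 segment is triplicated. In Dp16 against wild-type liver, none of the 34 tested orthologs was called, against a background of 6 of 15208 genes (0.0395%). Their median log2 fold change was 0.14 (quartiles -0.10 and 0.25), with 22 above 0 and 12 below, where 51.4% of all genes tested lay above 0 with a median of 0.01. At an unadjusted p under 0.05 stood 1 of the 34, Tff3, where 740 of all genes did (4.87%). Of 76 tested genes of the triplicated segment (95 listed, the receptors left out), the median was 0.62 and 76 of 76 lay above 0. None of those was called either, and 39 had an unadjusted p under 0.05.

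Cbs shows the size of the spread. Its CPM ran from 235.1 to 547.5 in wild-type (median 397.1), from 290.1 to 638.5 in Dp16 (median 523.0) and from 333.1 to 583.2 in Dp16-2xIFNRs (median 451.0). All 3 ranges overlapped, and the log2 fold change in Dp16 was 0.36 (95% interval -0.09 to 0.81; adjusted p = 0.999). Ftcd varied less, from 174.6 to 239.3 CPM in wild-type (median 194.5), 152.4 to 223.0 in Dp16 (median 180.0) and 157.6 to 197.0 in Dp16-2xIFNRs (median 183.6). Its log2 fold change was -0.11 in Dp16 (interval -0.37 to 0.15), narrow enough to leave out a 1.5-fold rise. Pttg1ip ran from 190.9 to 302.2 CPM in wild-type (median 220.3), 151.5 to 256.2 in Dp16 (median 212.7) and 222.7 to 259.5 in Dp16-2xIFNRs (median 242.6), and its log2 fold change in Dp16 was -0.15 (interval -0.45 to 0.15).

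**Figure D2:**
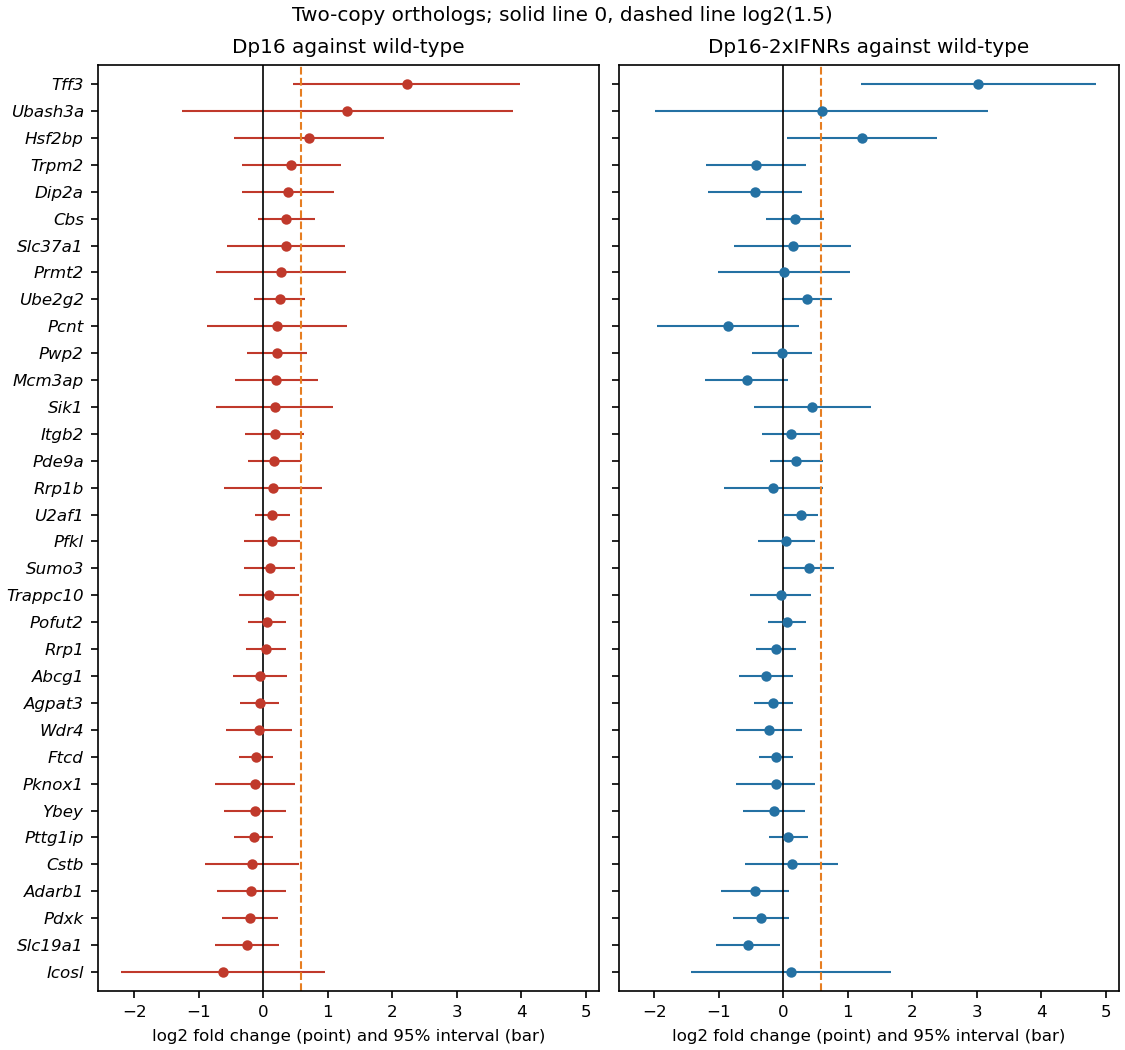
Log2 fold change against wild-type (point) with its 95% interval (bar) for the 34 tested orthologs, in Dp16 (left) and Dp16-2xIFNRs (right), with a solid line at 0 and a dashed line at 1.5-fold (0.585). Most intervals cross 0, those of Ftcd, Pofut2 and Agpat3 stop short of the dashed line on both sides, and those of Tff3, Ubash3a and Icosl are several log2 units wide.

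A value that misses the threshold does not show that a gene is unchanged, so each fold was also tested against 1.5, the level that 3 copies in place of 2 would give in proportion. In Dp16, 12 of the 34 orthologs differed from 1.5-fold, all 12 below it, against a background of 36% of all genes tested (35.9% below it). They were Ftcd, Pttg1ip, Agpat3, Pofut2, Pdxk, Rrp1, Slc19a1, U2af1, Abcg1, Ybey, Adarb1 and Wdr4. Of the 76 segment genes, 2 differed from 1.5-fold (Erg and Jam2). By interval, 17 orthologs held 0 and not 1.5-fold, 1 held 1.5-fold and not 0 (Tff3), and 16 held both. For segment genes these counts were 3, 39 and 34. With 6 livers a group, those 16 could not be placed at either level.

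The narrower statement, that an interval lies wholly between a 1.5-fold fall and a 1.5-fold rise, held for 11 of 34 orthologs in Dp16 (32.4%), for 3 of 76 segment genes (3.95%) and for 27.8% of all genes tested. The ortholog share is near that of all genes. The counts describe precision as much as level: the median biological coefficient of variation was 0.29 over the orthologs and 0.351 over all genes.

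Split by chromosome, the median log2 fold change in Dp16 was 0.07 over 22 tested orthologs of chromosome 10 (13 above 0) and 0.17 over 12 of chromosome 17 (9 above 0). Their difference was not tested. A further 17 orthologs on these chromosomes that were not among the 36 gave 9 tested genes with a median of -0.02 in Dp16 and none called. The smallest p values there were those of the collagen VI chains Col6a1 (log2 0.79, SE 0.24, unadjusted p = 0.00366, adjusted p = 0.498) and Col6a2 (log2 0.73, SE 0.23, adjusted p = 0.554). Matrix and stellate cell markers lay on the same side, 9 of 9 above 0 with summed levels of 211.5 to 367.5 CPM in Dp16 and 150.7 to 251.9 in wild-type, and their part in the Col6 values was not tested.

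Each library can also be read on its own. Taken as the median over the 34 orthologs of log2 CPM less the wild-type mean, libraries ran from -0.23 to 0.20 in wild-type, from -0.28 to 0.19 in Dp16 and from -0.17 to 0.08 in Dp16-2xIFNRs. These ranges overlapped throughout, and the lowest was Dp16 library 4. For the segment genes, the same measure ran from -0.06 to 0.12 in wild-type, 0.48 to 0.90 in Dp16 and 0.49 to 0.62 in Dp16-2xIFNRs, so carriers and wild-type did not overlap.

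**Figure D3:**
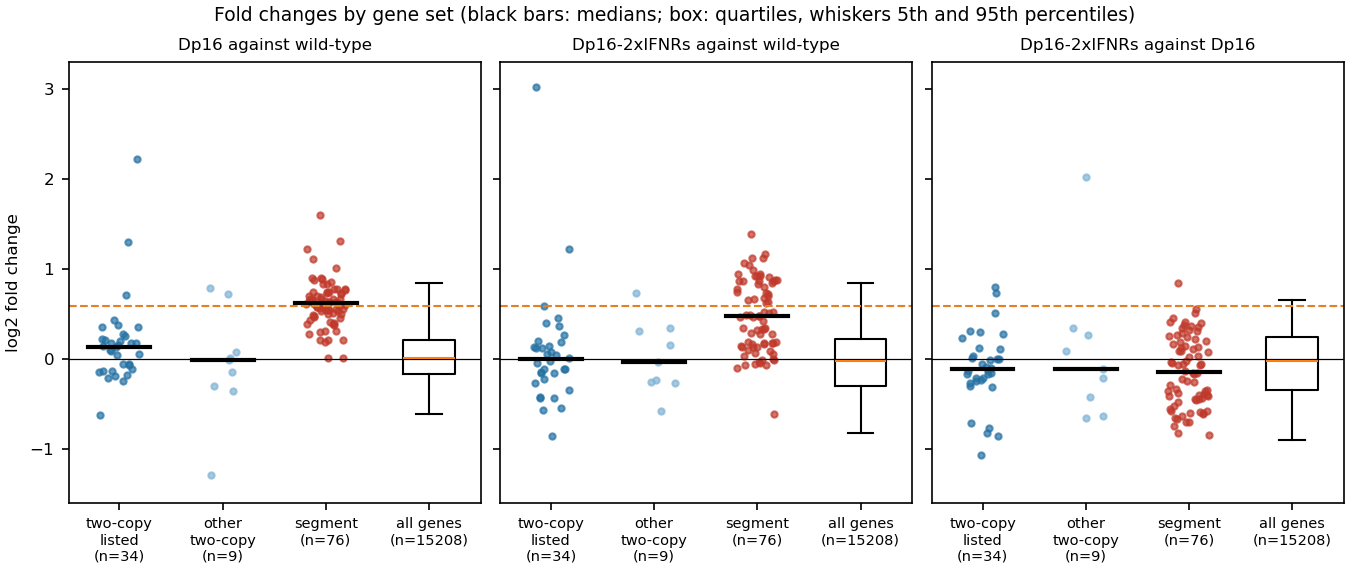
Log2 fold changes in 3 genotype comparisons for the 34 listed orthologs in 2 copies, the 9 other such orthologs and the 76 segment genes (points, with medians as black bars), beside all 15208 genes tested (box with quartiles, whiskers at the 5th and 95th percentiles). In Dp16 the listed orthologs centre on 0.14 and the segment on 0.62, while in Dp16-2xIFNRs against Dp16 both centre slightly below 0.

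In Dp16-2xIFNRs against wild-type, none of the 34 orthologs was called, beside 15 of all genes (0.0986%). The median log2 fold change was -0.0063, with 17 above 0 and 17 below, where 47.4% of all genes lay above 0. Both comparisons share the wild-type libraries. At an unadjusted p under 0.05 stood 5 of 34 orthologs, 4 higher and 1 lower, where 8.66% of all genes did (3.43% higher and 5.23% lower). That count was 1 without wild-type library 2 or Dp16-2xIFNRs library 3 or 4, and 7 without Dp16 library 4. The segment had a median of 0.48 and 3 called genes, Tmem50b, Cct8 and Vps26c. Against 1.5-fold, 20 of the 34 orthologs differed, 19 below and Tff3 above. The background was 44.7% of all genes (44.3% below), and 4 of 76 segment genes differed. Without wild-type library 1 or 4 the ortholog count was 13. Tff3 had an unadjusted p of 0.01 (adjusted p = 0.0266) against 1.5-fold, and 0.0024 (adjusted p = 0.255) against no change. The many genes below 1.5-fold ease the adjustment of the former, so the Tff3 call does not show a rise.

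The 5 genes are given by value only. Slc19a1 measured 3.905, 5.266, 4.523, 5.064, 4.763 and 5.941 CPM in wild-type libraries 1 to 6, and 4.077, 2.641, 2.336, 2.783, 3.506 and 4.788 in Dp16-2xIFNRs libraries 1 to 6. In Dp16 its lowest, median and highest values were 1.85, 4.278 and 5.578. Of the 6 Dp16-2xIFNRs livers, 4 lay below every wild-type liver and the other 2 within their range. The log2 fold change was -0.54 (SE 0.24, unadjusted p = 0.0334, adjusted p = 0.552). Slc19a1 overlaps Col18a1 on the opposite strand, and no source used here gives the strand setting of the counting.

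U2af1, which recognises the 3′ splice site, measured 27.46 to 42.42 CPM in wild-type (median 30.54), 28.81 to 41.95 in Dp16 (median 36.6) and 32.49 to 46.07 in Dp16-2xIFNRs (median 39.59). The groups overlapped, and wild-type library 1 held 42.42. The log2 fold change in Dp16-2xIFNRs was 0.27 (SE 0.13, unadjusted p = 0.0469, adjusted p = 0.574), and 0.0044 once gene length was put into the fit. Sumo3 measured 59.86 to 90.19 CPM in wild-type (median 66.55), 43.06 to 129.7 in Dp16 (median 72.31) and 69.45 to 119.3 in Dp16-2xIFNRs (median 96.29). Its extremes in Dp16 were library 5 (low) and library 4 (high), and its log2 fold change in Dp16-2xIFNRs was 0.39 (SE 0.19, adjusted p = 0.574). Sumo3 and Ube2g2 both overlap the gene model Gm49325 on their own strand, so reads could be lost to it in counting. The other 2 genes, Tff3 and Hsf2bp, are described with the comparison of the sexes.

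In Dp16-2xIFNRs against Dp16, which asks what receptor dosage does in mice that carry the segment, none of the 34 orthologs and none of all 15208 genes was called (0%), beside 1418 genes at an unadjusted p under 0.05 (9.32%). DESeq2 called 7 genes, none of them an ortholog. The ortholog median was -0.11, with 12 above 0 and 22 below, and that of all genes was -0.02, with 48.1% of them above 0. Of the orthologs, 3 had an unadjusted p under 0.05, all lower in Dp16-2xIFNRs, where 7.11% of all genes did on that side.

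Mcm3ap, the scaffold of the TREX-2 mRNA export complex, measured 12.62, 8.171, 15.05, 4.277, 16.37 and 8.556 CPM in Dp16 libraries 1 to 6, and 5.857, 4.347, 6.701, 6.424, 7.51 and 7.434 in Dp16-2xIFNRs libraries 1 to 6. In wild-type it ran from 5.054 to 15.58 (median 8.38). Every Dp16 liver other than library 4 was above every Dp16-2xIFNRs liver. The log2 fold change was -0.77 (SE 0.31, unadjusted p = 0.0226, adjusted p = 0.532).

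Dip2a, a disco-interacting protein homolog, ran from 1.517 to 3.618 CPM in Dp16 (median 1.998), 0.428 to 1.899 in Dp16-2xIFNRs (median 1.242) and 0.887 to 3.014 in wild-type (median 1.65), with a log2 fold change of -0.82 (SE 0.35, adjusted p = 0.532). Trpm2, a calcium channel opened by ADP-ribose and found on leukocytes, ran from 1.153 to 6.599 CPM in Dp16 (median 2.353), 1.081 to 2.554 in Dp16-2xIFNRs (median 1.321) and 1.588 to 3.58 in wild-type (median 1.703), with a log2 fold change of -0.86 (SE 0.37, adjusted p = 0.532). In both genes the groups overlapped and Dp16 library 5 held the highest value. Without that library the Trpm2 value was -0.48.

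All 3 are long transcripts, and length moved with these values. Across the 34 orthologs the Spearman correlation between gene length and log2 fold change was -0.69 for Dp16-2xIFNRs against Dp16 and -0.57 for Dp16-2xIFNRs against wild-type, and 0.10 for Dp16 against wild-type. Over all genes tested the same values were -0.54, -0.38 and 0.24. For males against females the correlation was -0.44 across the orthologs and -0.27 over all genes tested. These correlations are descriptions across genes that share the same libraries. A length term was an alternative chosen after seeing the data. With it, the values in Dp16-2xIFNRs against Dp16 were -0.36 for Mcm3ap, -0.47 for Dip2a and -0.40 for Trpm2. No ortholog then had an unadjusted p under 0.05 in Dp16-2xIFNRs against Dp16.

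Single libraries differed along length too. Across the 34 orthologs, the Spearman correlation of length with log2 CPM less the mean of all libraries was -0.62 in Dp16 library 4 and 0.598 in library 5, and over all genes -0.466 and 0.573. Between libraries 5 and 4, log2 CPM differed by 4.85 for the centrosomal scaffold Pcnt, which has the greatest length among the orthologs (9395 bases), by 2.48 for Trpm2 and by 1.93 for Mcm3ap, but by -2.45 for Cstb (603 bases) and -1.59 for Sumo3 (3140 bases). Other genes departed from this order, with 2.76 for Icosl (2814 bases), 0.28 for Agpat3 (6750 bases) and -0.62 for Ybey (4522 bases). Library 4 is from a male and library 5 from a female. Whether RNA quality has a part in this was not tested.

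**Figure D4:**
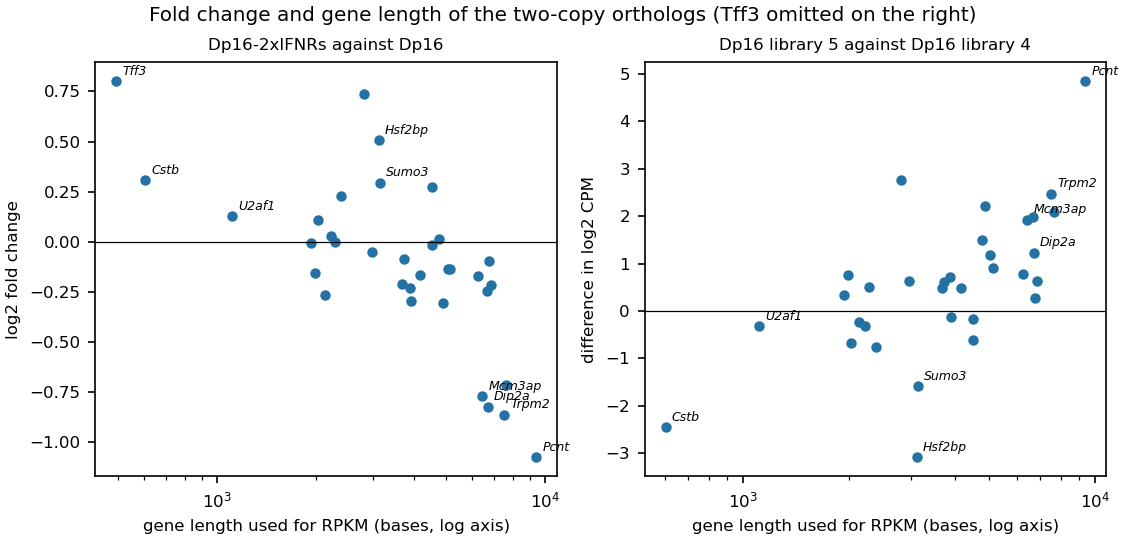
Gene length used for RPKM (bases, log axis) against the log2 fold change in Dp16-2xIFNRs against Dp16 (left) and against the difference in log2 CPM between Dp16 libraries 5 and 4 (right), 1 point per ortholog. Pcnt, the longest, lies at -1.07 on the left and 4.85 on the right, other long genes such as Agpat3 lie near 0 in both, and Tff3, at -12.3 on the right, is left out there.

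The clearest differences among the 36 genes ran with sex. Between males and females, 2 of the 34 tested orthologs were called, Tff3 and Hsf2bp, both higher in males, where 998 of all genes were called (6.56%). The share of 2 in 34 is close to that background. Ortholog values had a median of 0.06, with 20 above 0 and 14 below, where 47.6% of all genes lay above 0. Tff3 was the 1 ortholog whose male and female libraries did not overlap, and 0.986% of all genes lay apart on that side. The sex values also ran with gene length (Spearman -0.44 across the 34 orthologs), so shorter orthologs tended to lie higher in males. Of the genes named below, Tff3, U2af1 and Ube2g2 are among the shorter orthologs, while Hsf2bp and Sumo3 lie nearer the middle by length.

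Tff3 encodes trefoil factor 3, a small secreted peptide known from mucus-secreting epithelia. In wild-type males it measured 17.65, 1.638 and 20.94 CPM (libraries 1, 2 and 5) and in wild-type females 0.2117, 0 and 0. In Dp16 males it measured 47.0, 38.63 and 218.2 CPM (libraries 2, 3 and 4) and in Dp16 females 0.06108, 0 and 0. In Dp16-2xIFNRs males it measured 89.46, 105.1 and 132.8 CPM (libraries 1, 3 and 5) and in females 0.2805, 0.1821 and 0.4848. All 9 males lay above all 9 females, with 26991 counts in the male libraries and 57 in the female ones, of which 4 libraries had 0. The log2 difference was 9.12 (SE 0.78, adjusted p = 9.66e-08).

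Among males, all 3 Dp16 and all 3 Dp16-2xIFNRs livers lay above all 3 wild-type livers, by 3.10 and 3.66 on the log2 scale. Male livers lay apart on that side in 4.15% and 7.69% of all genes. An exact two-sided permutation test of 3 males against 3 gave p = 0.1 for each, the smallest that 20 arrangements allow. In the fit over all 18 libraries, the log2 fold change was 2.22 in Dp16 (SE 0.84, unadjusted p = 0.0156, adjusted p = 0.803) and 3.02 in Dp16-2xIFNRs (SE 0.87, unadjusted p = 0.0024, adjusted p = 0.255). The Dp16 value was 1.15 without Dp16 library 4, and -1.83 in females alone. Females held 3 counts in Dp16 and 11 in wild-type, each from 1 liver, with 0 in the other 2 livers of the group. The ratio was 0.222 (exact binomial 95% interval 0.0397 to 0.839). That interval is for counting error only and leaves out the spread between mice. The Dp16-2xIFNRs value passed the threshold with limma-voom (log2 3.72, adjusted p = 0.0267).

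Tff3 is also expressed by bile duct epithelium. Summed levels of 9 cholangiocyte markers, of which 7 were tested, ran from 45.36 to 70.06 CPM in males (median 62.6) and from 53.42 to 117.9 in females (median 65.99). The sexes overlapped, and none of the 7 tested markers was called between them. Summed erythroid markers ran from 156.3 to 428 CPM in males and from 18.03 to 177.4 in females, and 2 of 7 tested were called, both higher in males: Alas2, the erythroid form of the first enzyme of heme synthesis (log2 3.51, SE 0.19), and the transferrin receptor Tfrc (log2 1.54, SE 0.34). The median over the 7 was 0.22, with 5 above 0 and 2 below, the lowest being the red cell anion exchanger Slc4a1 (log2 -2.06, adjusted p = 0.234). Against wild-type, the erythroid medians were 1.40 in Dp16 (6 of 7 above 0) and 2.03 in Dp16-2xIFNRs (7 of 7), with none called. In Dp16-2xIFNRs, 4 of the 7 lay wholly above wild-type, as 73 of 15208 genes did. The erythroid sums overlapped, at 52.82 to 199.9 CPM in wild-type, 18.03 to 428 in Dp16 and 91.59 to 338.4 in Dp16-2xIFNRs. The part of the cholangiocyte and erythroid lists in the Tff3 results was not tested.

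**Figure D5:**
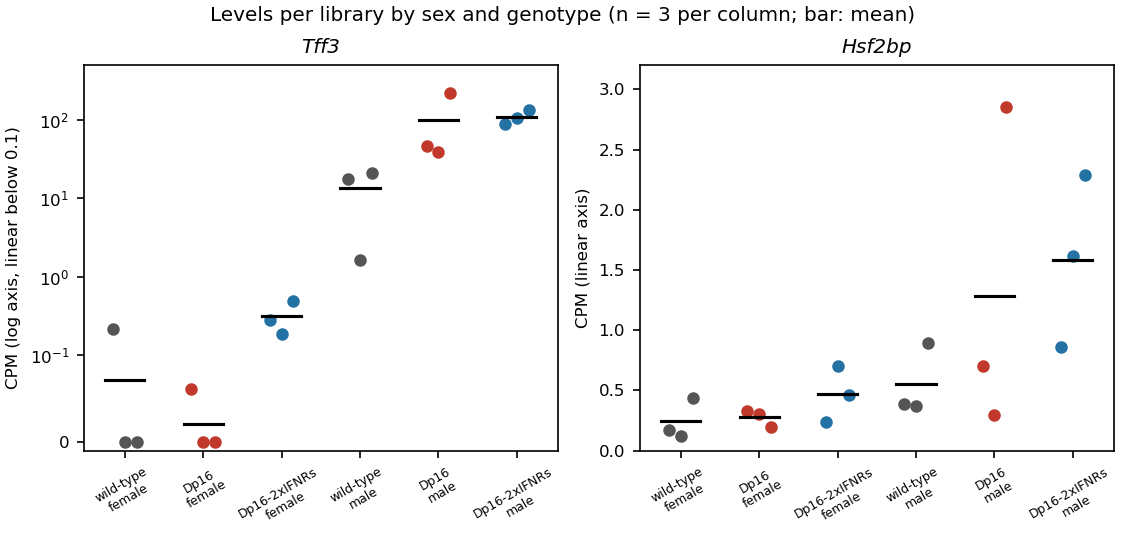
CPM of Tff3 (left, log axis that is linear below 0.1) and Hsf2bp (right, linear axis) in each library, split by sex and genotype (3 libraries per column, bar at the mean). Tff3 lies between 1.638 and 218.2 in males and at most 0.4848 in females, while Hsf2bp overlaps between the sexes and reaches 2.851 in Dp16 library 4.

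Hsf2bp encodes a partner of the heat shock factor HSF2 that is needed for meiotic recombination in germ cells. In males it measured 0.3905, 0.3706 and 0.8931 CPM in wild-type, 0.7056, 0.2977 and 2.851 in Dp16 and 0.856, 1.615 and 2.288 in Dp16-2xIFNRs. In females it measured 0.1732, 0.1206 and 0.4332 CPM, 0.3257, 0.2994 and 0.1986, and 0.2337, 0.7022 and 0.4646 in the same order. The sexes overlapped, and the gene was low throughout, with 417 counts in 9 males and 147 in 9 females. The log2 difference was 1.72 (SE 0.46, adjusted p = 0.0264). Leaving out single libraries, the call held in 11 of 18 fits, with adjusted p from 0.0119 to 0.0805, and the value was 1.30 without Dp16 library 4. Against wild-type, Hsf2bp gave log2 0.71 in Dp16 (adjusted p = 0.999) and 1.22 in Dp16-2xIFNRs (SE 0.56, unadjusted p = 0.0399, adjusted p = 0.56).

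Hsf2bp (positions 31944769 to 32036349, minus strand) overlaps the start of Rrp1b (positions 32036100 to 32062865, plus strand), a nucleolar protein gene that is itself among the 36. Reads from the overlap could be lost, or put to the wrong gene, if strand was not used. Rrp1b gave a log2 difference of 0.37 between the sexes (SE 0.30, adjusted p = 0.556). Their promoter windows (RefSeq, GRCm38.p6) run from 250 bases before to 50 after the start site. They are shown because the genes are read head to head from RefSeq start sites 1654 bases apart. The overlap above is that of the GENCODE gene positions. RefSeq places the Hsf2bp start at 32034508, so the Hsf2bp window does not cover the end of the gene that overlaps Rrp1b. The Hsf2bp window lies at chr17:32034459-32034758 (minus strand) and the Rrp1b window at chr17:32035912-32036211 (plus strand). Each is written 5′ to 3′, with capitals for a match to CCAAT or GGGCGG on either strand.
Hsf2bp: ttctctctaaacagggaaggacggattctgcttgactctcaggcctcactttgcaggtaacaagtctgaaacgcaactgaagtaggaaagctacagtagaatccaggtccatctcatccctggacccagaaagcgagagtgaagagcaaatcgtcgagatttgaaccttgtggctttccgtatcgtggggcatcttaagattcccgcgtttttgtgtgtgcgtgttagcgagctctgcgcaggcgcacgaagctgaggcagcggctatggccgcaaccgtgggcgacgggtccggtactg
Rrp1b: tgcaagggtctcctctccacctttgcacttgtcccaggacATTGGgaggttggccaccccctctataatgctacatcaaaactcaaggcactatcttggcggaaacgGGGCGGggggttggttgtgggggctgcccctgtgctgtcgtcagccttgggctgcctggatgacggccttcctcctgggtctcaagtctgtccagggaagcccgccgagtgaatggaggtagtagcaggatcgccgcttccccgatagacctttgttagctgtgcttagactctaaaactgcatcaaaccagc
The Rrp1b window held 1 CCAAT box at -210 and 1 GC box at -143 from the start site, and the Hsf2bp window held neither. The share of G and C was 57.3% in the Rrp1b window and 53.7% in that of Hsf2bp.

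Promoter windows were found for 26 of the 36 orthologs (31 windows), without one for Tff3. The GC box GGGCGG, searched on both strands, was in 20 of 31 windows (64.5%), in 58.7% of the windows of tested genes and in 35.7% of all 32851 windows. CCAAT was in 32.3% of ortholog windows and 37.6% of those of tested genes. The E-box CACGTG was in 3 ortholog windows, those of Cbs, Pdxk and Trappc10 (9.68%, and 9.48% over tested genes). The STAT5 motif TTCNNNGAA, of the factor that relays growth hormone in liver, was in 1 ortholog window, that of Pcnt (3.23%, and 6.96% over tested genes).

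The remaining sex values did not pass the threshold. Ube2g2 gave log2 0.43 (SE 0.15, adjusted p = 0.108), Sumo3 0.39 (SE 0.15, adjusted p = 0.16) and U2af1 0.25 (SE 0.10, adjusted p = 0.186). With the sample number of the titles as a replicate block, Sumo3 (log2 0.59, adjusted p = 0.0309) and Ube2g2 (log2 0.61, adjusted p = 0.0365) passed it, which makes 4 called orthologs. The 6.56% of all genes called between the sexes is from the fit without that block, so it is no background for this count. Correlations between libraries of the same sample number gave no clear sign of a pairing (median 0.039, and -0.012 over pairs sharing no number). Whether the genotype effect differs between the sexes was tested with an interaction term, and no ortholog and no gene at all was called (0% in both carrier groups). At an unadjusted p under 0.05 stood 3 orthologs in Dp16, beside 7.88% of all genes, but 0 without Dp16 library 5 and 8 without Dp16 library 3. The log2 difference, males less females, was 4.89 for Tff3, -1.22 for Adarb1 and 0.83 for Sumo3. The adjusted p of each in edgeR was 0.582. The Tff3 value rests on female totals of 3 counts in Dp16 and 11 in wild-type. No ortholog had an unadjusted p under 0.05 in Dp16-2xIFNRs, beside 2.24% of all genes.

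By role, the 4 genes of vitamin and one-carbon metabolism (Cbs, Pdxk, Ftcd, Slc19a1) had log2 medians of -0.16 in Dp16 and -0.23 in Dp16-2xIFNRs against wild-type, with 1 of 4 above 0 in each. Pdxk, which makes pyridoxal phosphate, the cofactor of Cbs, gave -0.21 (95% interval -0.65 to 0.23) and -0.34 (interval -0.78 to 0.09). Of 38 other tested genes of the methionine cycle, transsulfuration and folate metabolism, none was called in a genotype comparison. Values with the smallest p were those of the betaine methyltransferase Bhmt in Dp16 (log2 -0.77, SE 0.23, adjusted p = 0.456) and of the mitochondrial serine enzyme Shmt2 in Dp16-2xIFNRs (log2 -0.43, SE 0.16, adjusted p = 0.485). Between the sexes 2 of the 38 rose in males, the mitochondrial folate enzyme Mthfd2 (log2 1.32, adjusted p = 0.0485) and Bhmt (log2 0.68, adjusted p = 0.0321). The 4 that fell included the methionine adenosyltransferase genes Mat1a (log2 -0.57, adjusted p = 0.00116) and Mat2a (log2 -0.56, adjusted p = 0.00824).

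The 8 genes of RNA processing and ribosome assembly (U2af1, Rrp1, Rrp1b, Pwp2, Wdr4, Ybey, Adarb1, Mcm3ap) had medians of 0.09 and -0.15, with 5 of 8 above 0 in Dp16 and 1 of 8 in Dp16-2xIFNRs. Rrp1 held a narrow range in wild-type, 42.15 to 58.22 CPM, and gave a log2 fold change of 0.05 in Dp16 (interval -0.27 to 0.36) even with Dp16 library 4 at 32.37. The endoribonuclease Ybey gave -0.13 and -0.15, and Rrp1b 0.15 and -0.15. Adarb1, an adenosine deaminase that edits RNA, gave -0.19 (interval -0.72 to 0.35) and -0.43 (interval -0.96 to 0.10). Pwp2, a small subunit processome protein, gave 0.21 and -0.02, and the tRNA methylation subunit Wdr4 gave -0.06 and -0.23. None of 28 spliceosome partners and none of 33 other tested assembly factors was called in a genotype comparison. Of the latter, Bop1 rose in males (log2 0.46, adjusted p = 0.0115).

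In sugar and lipid metabolism (Pfkl, Agpat3, Abcg1, Slc37a1) the medians were 0.04 and -0.05. Pfkl gave 0.13 (interval -0.30 to 0.57) and 0.05 (interval -0.39 to 0.49), with CPM of 22.17 to 37.9 in wild-type, 20.44 to 47.44 in Dp16 and 22.02 to 40.29 in Dp16-2xIFNRs. Agpat3, which builds phosphatidic acid, was among the least variable, at 173.7 to 249.3, 146.0 to 247.3 and 167.6 to 209.9 CPM, with log2 fold changes of -0.06 and -0.15. The cholesterol exporter Abcg1 gave -0.05 and -0.27, and the phosphate-linked glucose-6-phosphate carrier Slc37a1 0.36 and 0.14. Of 20 glycolysis genes and 15 tested LXR targets and efflux genes, none was called in a genotype comparison. Aldoc rose in males (log2 0.67, adjusted p = 0.0498), as did the transporter Abcg2 (log2 1.78, adjusted p = 1.38e-08), while the phospholipid transfer protein Pltp (log2 -0.79, adjusted p = 0.00352) and Mylip, a ubiquitin ligase for the LDL receptor, fell (log2 -0.52, adjusted p = 0.0374).

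The 6 genes of the ubiquitin, SUMO, protease and secretory group had medians of 0.07 and 0.11, with 4 and 5 of 6 above 0. Ube2g2 gave 0.25 (interval -0.14 to 0.65) and 0.36 (interval -0.03 to 0.76). Pofut2, which fucosylates thrombospondin repeats, held 13.09 to 17.42 CPM in wild-type, 11.95 to 19.98 in Dp16 and 13.33 to 17.9 in Dp16-2xIFNRs, with log2 fold changes of 0.05 in both. Cstb spread further, from 14.56 to 79.53 CPM in Dp16, and gave -0.18 (interval -0.90 to 0.55). The vesicle tethering subunit Trappc10 gave 0.09 and -0.04. None of 25 SUMO and ERAD enzymes was called in a genotype comparison, and the SUMO protease Senp2 rose in males (log2 0.40, adjusted p = 0.0207).

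Of the 5 signalling and transcription genes (Sik1, Pknox1, Pde9a, Prmt2, Dip2a), 4 lay above 0 in Dp16 and 3 in Dp16-2xIFNRs. Sik1, which restrains CREB-driven glucose production through its coactivators, ran from 10.97 to 45.65 CPM in wild-type, 9.833 to 70.98 in Dp16 and 18.65 to 63.55 in Dp16-2xIFNRs, with log2 fold changes of 0.18 (interval -0.73 to 1.08) and 0.45 (interval -0.46 to 1.36). Pde9a gave 0.17 and 0.20, the homeobox factor Pknox1 -0.13 and -0.12, and the arginine methyltransferase Prmt2 0.28 and 0.0094. Of 22 CREB and kinase genes, 19 lay above 0 in Dp16 and 7 in Dp16-2xIFNRs, with none called in a genotype comparison. Igfbp1 had the smallest p in both (log2 1.23, adjusted p = 0.381, and log2 1.52, adjusted p = 0.117). Of 18 core clock genes, which share daily rhythms with Sik1, none was called in a genotype comparison, and Per2 gave log2 -1.51 in Dp16 (SE 0.39, adjusted p = 0.289). The clock medians were -0.42 in Dp16 (12 of 18 below 0) and -0.68 in Dp16-2xIFNRs (14 of 18 below 0). In each, 4 clock genes were lower and 1 higher at an unadjusted p under 0.05, where 4.87% and 8.66% of all genes passed. Between the sexes 1 gene of each list was called, both lower in males: Ppargc1a, a coactivator of gluconeogenic genes (log2 -0.67, adjusted p = 0.0446), and the clock output factor Hlf (log2 -0.61, adjusted p = 0.0301). The hour of collection is not given in the labels, and its part in the Sik1 values was not tested.

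Among leukocyte genes, Itgb2, the shared chain of the leukocyte integrins, measured 5.012 to 12.1 CPM in wild-type, 7.007 to 11.67 in Dp16 and 5.67 to 13.77 in Dp16-2xIFNRs, with log2 fold changes of 0.18 (interval -0.28 to 0.63) and 0.12 (interval -0.33 to 0.58). Summed pan-leukocyte markers overlapped as well, at 124.7 to 206.2, 152.7 to 185.9 and 156.3 to 189.5 CPM. Markers of T and NK cells, of B and plasma cells and of neutrophils and monocytes lay mostly above 0 in both carrier groups. Kupffer cell markers lay mostly below 0, with medians of -0.10 in Dp16 (8 of 10 below 0) and -0.14 in Dp16-2xIFNRs (7 of 10). None of these markers was called in a genotype comparison. T and NK markers had medians of 0.65 in Dp16 (9 of 10 above 0) and 0.76 in Dp16-2xIFNRs (8 of 10), with sums of 4.466 to 13.22 CPM in wild-type, 4.316 to 14.86 in Dp16 and 9.414 to 11.94 in Dp16-2xIFNRs. B and plasma cell markers had medians of 0.41 (5 of 7 above 0) and 0.97 (7 of 7), with sums of 8.344 to 70.78, 16.17 to 156.6 and 57.57 to 327.5 CPM. Neutrophil and monocyte markers had medians of 0.41 (7 of 10 above 0) and 0.39 (10 of 10), with sums of 39.91 to 109.9, 55.4 to 243.4 and 81.55 to 164 CPM. Each list overlapped between genotypes in its sum, and the part of these lists in the values of the leukocyte genes was not tested. Icosl, the ligand of the T cell costimulator ICOS, gave -0.62 and 0.12, and Ubash3a 1.31 and 0.59, with intervals too wide to place them (Icosl -2.20 to 0.96 and Ubash3a -1.25 to 3.86 in Dp16). Ubash3a measured 0 to 0.3014 CPM in wild-type, 0 to 0.8718 in Dp16 and 0 to 0.3973 in Dp16-2xIFNRs. None of 8 tested Itgb2 partners and ligands was called in a genotype comparison, and the ligand Icam1 fell in males (log2 -0.48, adjusted p = 0.0405).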

How the data were processed

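Polyadenylated RNA from 18 mouse livers was sequenced in strand-specific paired-end libraries, per the labels' protocols. The deposited counts are whole numbers per gene, and the RPKM the authors deposited divide those counts by the total of the column and by gene length. The tools named are HISAT2 2.1.0 and HTSeq 0.6.1, with SAMtools 1.5, FastQC 0.11.5 and bcl2fastq, and the build is GRCm38, per the submitters' processing notes. No source used here gives the strand setting of the counting. Gene positions came from GENCODE M21, which held 99.56% of the gene identifiers.

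Groups and sex were taken from the labels. Genes were kept by filterByExpr in edgeR (15208 of 55385) and fitted by quasi-likelihood in edgeR 4.0.16 (R 4.3.3), using TMM factors, robust estimation and terms for group and sex over all 18 libraries. P values were adjusted by Benjamini-Hochberg over all genes tested. Tests against a 1.5-fold null used offsets, and the difference between the sexes used an interaction term. Log2 CPM used a prior count of 2. The fit was tested on simulated data. Gene length was recovered from the counts, the column totals and the RPKM. Promoters came from RefSeq (GRCm38.p6).

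The orthologs, the gene lists and the rules were chosen with earlier results of these data known. Values per library, or ranges and medians, went to orthologs called in any comparison. Next came those with an unadjusted p under 0.05 between genotypes, then the 2 highest. The lowest detected were given by range or total count. From each pathway list, at most 4 called genes were named by size of change, or, with none called, at most 2 with the smallest p, as values only. Col6a1, Col6a2, Cbs, Alas2, Tfrc and Slc4a1 were named after their values were seen. Alternatives were DESeq2 1.42.0, limma-voom and limma on log2 RPKM (limma 3.58.1), other scaling factors and count filters, age or no sex as a term, blocks by sample number and by the number in the sample descriptions, each sex alone, only the groups compared, single libraries left out, and, added after the data were seen, a gene length offset. The depth of 38236222 to 59923315 counts leaves genes such as S100b near 0, where no fold is given.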

Additional observations from a re-analysis of the deposited data

Results flagged for a closer look

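Of 102 groups of 6 libraries (34 orthologs in 3 genotypes), 10 held a library that stood far from the other 5, by a gap over 0.625 of the group's range. For normally distributed values this cut-off flags about 1 in 20 such groups. It was applied to CPM without a log scale, in groups that mix the sexes, so that share is no background for the 10. Of the 10, 3 fell in Dp16 library 4 and 0 in Dp16 library 5. In Dp16 library 4 these were Tff3 at 218.2 CPM (others 0 to 47.0), Hsf2bp at 2.851 (others 0.1986 to 0.7056) and Rrp1 at 32.37 (others 54.21 to 60.88).

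Sik1 stood high in 2 libraries, at 70.98 CPM in Dp16 library 3 (others 9.833 to 23.74) and 63.55 in Dp16-2xIFNRs library 1 (others 18.65 to 33.54). These carry the same number in their sample descriptions. Wild-type library 1 carries that number too and measured 23.47 CPM, so it did not stand out. No source used here says what the number marks, and its part in the Sik1 values was not tested.

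In wild-type, Ftcd measured 239.3 CPM in library 2 (others 174.6 to 196.9), Ube2g2 44.88 in library 5 (others 20.46 to 25.58), Ybey 6.436 in library 6 (others 3.225 to 4.235) and Pttg1ip 302.2 in library 6 (others 190.9 to 224.2). Ubash3a measured 0.8718 CPM in Dp16 library 3 (others 0 to 0.3186). No difference between the sexes in a genotype effect was called for any ortholog.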

How the results depend on the processing

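The count of 0 called orthologs in Dp16 against wild-type and in Dp16-2xIFNRs against Dp16 was the same under each alternative run. In Dp16-2xIFNRs against wild-type, limma-voom called 1 ortholog, and limma-voom with the number in the sample descriptions as a random block (consensus correlation 0.407) called 1, Tff3 in both (adjusted p = 0.0267 and 0.0134). Between the sexes 2 orthologs were called. The count was 1 with a CPM of at least 1 in 6 libraries, with limma-voom, with that random block, with limma on log2 RPKM with 1 added and without Dp16 libraries 4 and 5, and 1 to 3 when single libraries were left out. The median between the sexes, 0.06, was -0.10 with limma on log2 RPKM with 0.1 added. In females alone, Tff3 in Dp16 was reversed, at -1.83, on totals of 3 counts in Dp16 and 11 in wild-type. The cause of these shifts was not tested, other than the count filter, which removes Hsf2bp.

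Leaving out single libraries moved the ortholog medians from 0.017 to 0.21 in Dp16, from -0.11 to 0.05 in Dp16-2xIFNRs, from -0.20 to -0.03 in Dp16-2xIFNRs against Dp16 and from -0.04 to 0.11 between the sexes. Counts differing from 1.5-fold moved from 10 to 13 in Dp16 and from 13 to 21 in Dp16-2xIFNRs. In Dp16-2xIFNRs against Dp16, orthologs at an unadjusted p under 0.05 numbered 10 without Dp16 library 4 and 0 without Dp16 library 5 or Dp16-2xIFNRs library 2. Over all genes, calls were 6 in Dp16 (DESeq2 72, length offset 21, 0 in males alone, 1 to 9 without single libraries: 1 without wild-type library 1 or 6 or Dp16 library 2, and 9 without Dp16 library 4), 15 in Dp16-2xIFNRs (DESeq2 127, length offset 48, 0 in males alone, 4 without wild-type library 1, 2 or 5, and 48 without Dp16 library 4), 0 between the carrier groups (DESeq2 7) and 998 between the sexes (DESeq2 1535).

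The sample number as a replicate block gave 4 called orthologs between the sexes, a count given without the share of all genes in that fit. It left the ortholog calls between genotypes at 0. Deviations from the group means correlated between libraries of the same number at -0.245 to 0.36, with 6 of 18 pairs over 0.1. Among pairs from different groups that shared no number, 18 of 85 were over 0.1. The pairs share libraries and their ranges overlap, so these values cannot decide whether the numbers pair the livers. Depth limits Ubash3a, Icosl, Hsf2bp, S100b and Rsph1, which had 8 to 564 counts over all libraries.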
